A study of Mus musculus with 50 samples.

Results

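Mammary epithelium of DN-Clim mice was compared with that of WT mice at 6 weeks of age, in mid puberty, when the ductal tree is growing through the fat pad. The comparison holds 10 of the 50 arrays of the series, taken by the genotype, age and structure given in the sample labels and by no measured value. They are 4 DN-Clim arrays, with 2 from terminal end buds (TEBs) and 2 from ducts, and 6 WT arrays, with 3 from each structure. The study's methods give 3 WT and 2 DN-Clim mice at this age, so the TEB and duct arrays of a replicate number were treated as coming from 1 mouse. The transgenic line was made in CB6F1 mice, a hybrid of BALB/c and C57BL/6, and transgenic males were mated to wild type littermates. The paper calls the background of the line mixed. Mice were littermates within an age, and the labels name no treatment. DN-Clim mice carry a transgene in which the LIM-interacting domain of Clim, fused to a nuclear signal and a Myc tag, is driven by the keratin 14 promoter, so that basal cells are the cells meant to express it. Cells of both structures were cut by laser from stained sections of the inguinal glands, and the RNA of each sample went on 1 array (Affymetrix Mouse Gene 1.0 ST). A captured sample holds basal, luminal and some stromal cells, and in it fewer cells of a type and less RNA per cell cannot be told apart.

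Clim proteins, which are also called Ldb, are cofactors without DNA binding of their own. They dimerize and join LIM domain proteins, such as the LIM-only and LIM-homeodomain factors, into complexes at gene control regions, and a Clim fragment without the dimerization domain occupies its partners and breaks these complexes. The pubertal duct has an outer basal layer and an inner luminal layer, its growth is driven by the TEB at the tip, and signals from ovarian hormones, FGF, ErbB and Wnt ligands pass between layers and stroma during this growth.

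The deposited intensities had medians of 186 to 221 on 9 of the 10 arrays, of which 0.287% to 1.85% of probe sets were under 1. WT TEB replicate 1 stood apart, with a median of 156, with 9.53% of probe sets under 1 and with a median correlation of 0.78 with the other 6-week arrays, where the other arrays had 0.926 to 0.953. It was kept, and results are also given without it. Over all 13362 genes tested, the median difference, DN-Clim minus WT, was 0.06 on the log2 scale and 65.4% of differences were above 0, with a median of 0.02 without that array. Unless stated otherwise, a level is a log2 intensity, a difference is DN-Clim minus WT on that scale with structure as a covariate, and adjusted p is from limma with Benjamini-Hochberg adjustment over all genes. The level of 1 probe set says nothing about that of another. The gene lists were written with earlier results of these data known. A count of list members set beside the share of all genes is therefore no test of a list.

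The transgene was not identified by a probe set, and the probe sets of the endogenous genes do not check for it. Ldb1, which encodes Clim2, measured 11.46 to 12.05 in WT and 11.55 to 11.87 in DN-Clim, a difference of −0.07 (standard error 0.11, adjusted p = 0.828). Ldb2, which encodes Clim1, measured 8.22 to 8.98 in WT and 7.99 to 8.75 in DN-Clim, a difference of −0.18 (standard error 0.20, adjusted p = 0.781). Lmo4, a LIM-only partner of the Clims, differed by −0.06 (standard error 0.07, adjusted p = 0.81). None of the 12 measured Clims and partners passed the test, and their median difference was 0.03 (−0.09 without WT TEB replicate 1). The samples held RNA of the luminal keratin Krt8, at 12.68 to 13.17 in WT and 12.76 to 13.62 in DN-Clim. The basal keratin Krt14 was at 10.41 to 10.76 in WT and 10.43 to 11.33 in DN-Clim. No sample free of epithelium was compared, so these levels do not check the epithelial, TEB or duct labels. The fat cell hormone Adipoq, at 11.55 to 12.003 in WT and 11.34 to 11.98 in DN-Clim, and the collagen Col1a1, at 11.62 to 11.94 in WT and 11.51 to 11.74 in DN-Clim, show that the captured samples also held RNA of fat and stroma.

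DN-Clim and WT epithelium differed in 60 genes, or 0.449% of those tested, with 24 (0.18%) higher and 36 (0.269%) lower in DN-Clim. The median difference of these genes was 0.86 for the higher and −0.73 for the lower, against 0.06 over all genes. All 60 had the same sign in TEBs and in ducts. For 22 of the higher and 32 of the lower genes, the 4 DN-Clim and 6 WT values did not overlap, where 2.77% of all genes lay wholly above and 1.64% wholly below. The 60 genes were chosen by a test on these same values, so large differences, like signs and little overlap are partly built in. The 20 genes described in most detail were also picked for having no overlap, so the separation of their groups is given by the choice. Among the higher genes were R3hdml, Dscam and the potassium channel subunit Kcns3, and among the lower Ache, Dmbt1, the Wnt inhibitor Wif1, the transcription factors Tfap2b and Zbtb16 and the receptors Fgfr2 and Erbb3. Without WT TEB replicate 1, 65 genes passed (0.486%), of which 52 were among the 60.

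The count rests on few arrays. Without WT duct replicate 1 it was 6, without DN-Clim duct replicates 1 and 2 it was 21 and 23, without WT duct replicates 2 and 3 it was 30 and 24, without DN-Clim TEB replicate 1 it was 27 and without WT TEB replicate 2 it was 35. With the means of each mouse, 3 WT against 2 DN-Clim, 5 genes passed, and with the mouse left out of the model 118 passed. The 20 genes with the largest changes were taken among those without overlap, 10 higher and 10 lower. Of them, Kcns3, Gipc2, Dmbt1, Fxyd2, Ufsp1 and Tfap2b passed in all 10 fits without 1 array. R3hdml, Ifnz, Ache, Htr4, Wif1, Zbtb16 and Agtr1a passed in all but that without WT duct replicate 1. There their adjusted p was 0.0523, apart from Ache with 0.209. The other 7, Dscam, Sytl5, Tnc, Cmah, Hgf, Spsb4 and Plac8, lost their call in more than 1 of these fits.

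R3hdml, which encodes a secreted protein of the cysteine-rich secretory protein family, had the largest increase. Its level was 7.50 to 9.21 in WT (median 8.69), 10.93 and 11.17 in the DN-Clim TEBs and 11.24 and 11.08 in the DN-Clim ducts. All 4 DN-Clim arrays lay above every WT array, WT TEB replicate 1 was the lowest, and R3hdml rose by 2.53 (standard error 0.30, adjusted p = 0.0058), or 5.78-fold. Dscam, a cell adhesion molecule known from neurons, measured 6.92 to 8.65 in WT (median 7.83), 9.20 and 10.04 in the DN-Clim TEBs and 9.004 and 9.91 in the DN-Clim ducts. Its groups did not overlap either, the second DN-Clim mouse was above the first in both structures, and Dscam rose by 1.71 (standard error 0.28, adjusted p = 0.0332). Dscam passed in 3 of the 10 fits without 1 array (adjusted p up to 0.258).

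Kcns3, a modifying subunit of voltage-gated potassium channels, measured 7.95 to 8.46 in WT (median 8.38), 9.50 and 9.54 in the DN-Clim TEBs and 9.52 and 9.59 in the DN-Clim ducts. The DN-Clim values lay close together and above all WT values, and Kcns3 rose by 1.24 (standard error 0.11, adjusted p = 0.00101). Gipc2, an adaptor with a PDZ domain, measured 9.53 to 9.95 in WT (median 9.79), 10.65 and 10.87 in the DN-Clim TEBs and 10.87 and 11.05 in the DN-Clim ducts. It had the smallest p of all genes, without overlap, and rose by 1.09 (standard error 0.08, adjusted p = 0.000336). Sytl5, which binds Rab proteins in vesicle traffic, measured 7.25 to 8.04 in WT (median 7.97), 9.14 and 8.87 in the DN-Clim TEBs and 9.64 and 9.19 in the DN-Clim ducts. The WT value of 7.25 came from duct replicate 3, the other WT arrays lay close together, and Sytl5 rose by 1.35 (standard error 0.21, adjusted p = 0.0271). Its call was lost in 5 of the 10 fits without 1 array, with an adjusted p of up to 0.312.

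Among ligands and matrix genes, Hgf, the ligand of the Met receptor, measured 7.80 to 8.48 in WT (median 8.07), 8.93 and 9.21 in the DN-Clim TEBs and 8.91 and 9.46 in the DN-Clim ducts. The groups did not overlap, and Hgf rose by 1.01 (standard error 0.18, adjusted p = 0.0441), but the call held in 1 of 10 fits without 1 array (adjusted p up to 0.401). Tnc, the matrix glycoprotein tenascin C, measured 8.94 to 9.63 in WT (median 9.26), 10.26 and 10.36 in the DN-Clim TEBs and 10.38 and 11.53 in the DN-Clim ducts. DN-Clim duct replicate 2 stood above the other DN-Clim arrays, which were themselves above all WT arrays, and Tnc rose by 1.35 (standard error 0.19, adjusted p = 0.0174). Its call was lost without WT duct replicate 1, WT duct replicate 3 or DN-Clim TEB replicate 1 (adjusted p up to 0.258). Thbs1, the matrix protein thrombospondin 1, rose by 0.50 (standard error 0.08, adjusted p = 0.0315), and Mif, a secreted cytokine, rose by 0.60 (standard error 0.10, adjusted p = 0.0341), each in 3 of the 10 fits without 1 array (adjusted p up to 0.312 and 0.258). Ifnz, a type I interferon gene, measured 7.44 to 8.02 in WT (median 7.77), 8.91 and 9.46 in the DN-Clim TEBs and 9.02 and 9.40 in the DN-Clim ducts. All WT values were below all DN-Clim values, and Ifnz rose by 1.45 (standard error 0.17, adjusted p = 0.00562).

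Enzymes among the higher genes included Cmah, which hydroxylates sialic acid and rose by 1.02 (standard error 0.15, adjusted p = 0.0174), with levels of 7.85 to 8.36 in WT and 8.63 to 9.36 in DN-Clim. Nnt, a proton-pumping transhydrogenase of mitochondria, rose by 0.72 (standard error 0.10, adjusted p = 0.016), Gsto1, a glutathione transferase, rose by 0.80 (standard error 0.14, adjusted p = 0.0382), and Egln3, an oxygen-dependent prolyl hydroxylase, rose by 0.63 (standard error 0.07, adjusted p = 0.00562). Spsb4, a substrate adaptor of a ubiquitin ligase, measured 7.30 to 8.16 in WT and 8.41 to 8.88 in DN-Clim and rose by 0.92 (standard error 0.16, adjusted p = 0.0403). For each of these 5 genes the groups did not overlap. Cmah lost its call in 5 of the 10 fits without 1 array (adjusted p up to 0.267), Spsb4 and Gsto1 in 8 (up to 0.267 and 0.258), Nnt without WT duct replicate 1 or 3 (up to 0.213) and Egln3 in 1 (up to 0.0523).

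**Figure D1:**
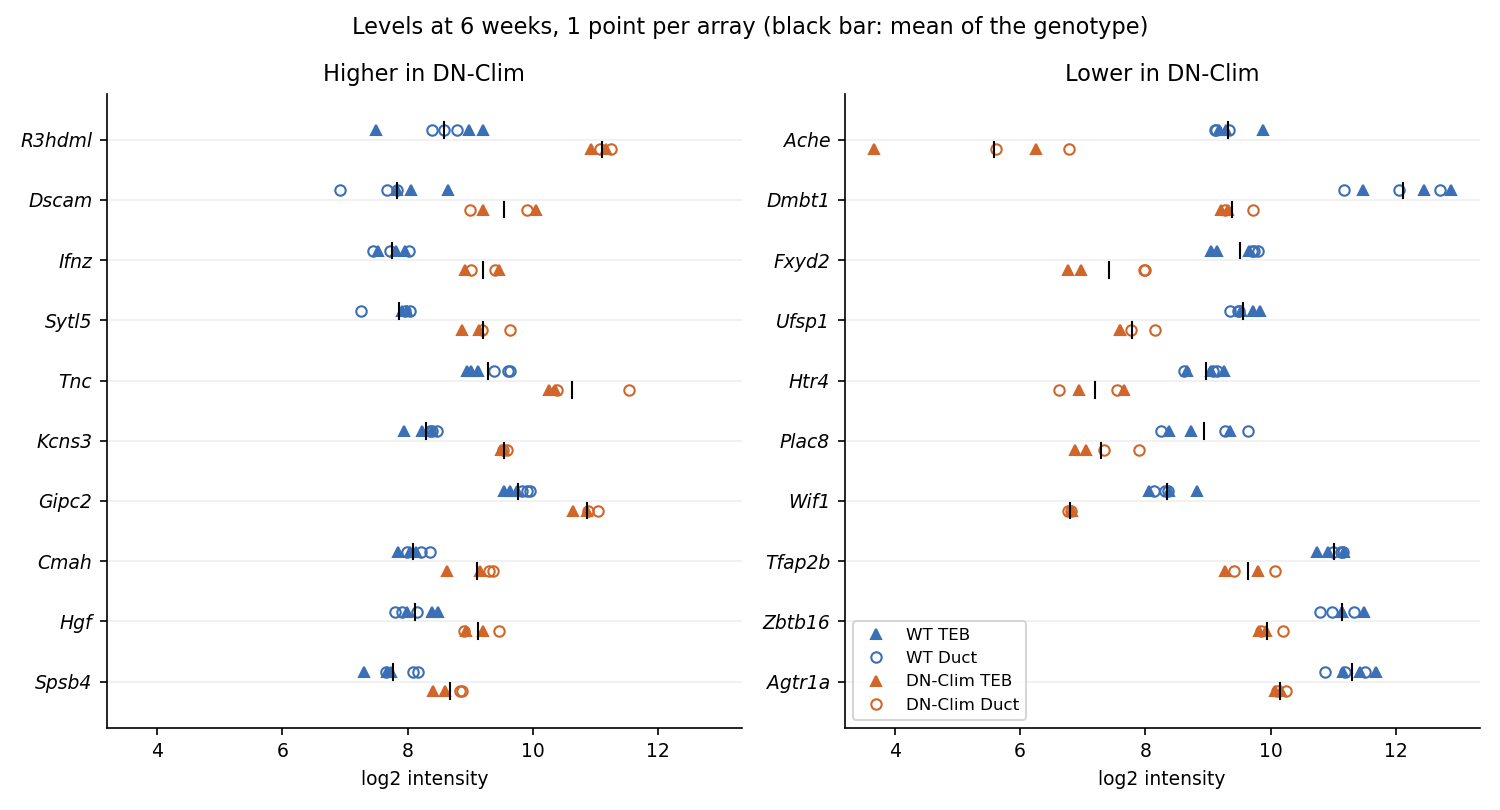
Log2 intensity (horizontal axis) of the genes past the test without overlap that rose most (10) and that fell most (10), with 1 point per array, triangles for TEBs, open circles for ducts, WT in blue, DN-Clim in orange and a black bar at the mean of a genotype. By the choice of genes, no DN-Clim point lies among the WT points of its gene. Ache has the widest spread in DN-Clim, from 3.66 to 6.78.

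Several of the lower genes encode secreted proteins. Dmbt1, a scavenger glycoprotein of mucosal surfaces, measured 11.18 to 12.88 in WT (median 12.25), 9.32 and 9.20 in the DN-Clim TEBs and 9.28 and 9.71 in the DN-Clim ducts. The highest DN-Clim value was more than 1 log2 unit below the lowest WT value, and Dmbt1 fell by 2.74 (standard error 0.32, adjusted p = 0.00562), or 6.7-fold. Wif1, a secreted protein that binds Wnt ligands and blocks them, measured 8.06 to 8.82 in WT (median 8.33), 6.82 and 6.81 in the DN-Clim TEBs and 6.81 and 6.76 in the DN-Clim ducts. The 4 DN-Clim values were nearly the same, all WT values were above them, and Wif1 fell by 1.54 (standard error 0.17, adjusted p = 0.0055). The DN-Clim intensities of Wif1, 108 to 113, were under the minimum of 200 by which probe sets were kept, and Wif1 and Ache were the 2 of the 60 genes for which a whole group was. Under it were also 3 of the 4 DN-Clim arrays for Htr4 and Plac8 and 2 for Fxyd2 and Ufsp1. Of the 6 WT arrays, 3 were under it for Cd79b and 2 for Ifnz. Ltf, the iron-binding milk and mucosal protein lactoferrin, measured 10.15 to 11.82 in WT (median 10.85), 9.47 and 9.04 in the DN-Clim TEBs and 10.17 and 10.06 in the DN-Clim ducts. It was higher in ducts than in TEBs of each genotype, so the groups met across structures (WT TEB replicate 2 at 10.15 and DN-Clim duct replicate 1 at 10.17) but not within one, and Ltf fell by 1.24 (standard error 0.14, adjusted p = 0.0055). Without WT duct replicate 1 its adjusted p was 0.0762. Fam3c, a secreted cytokine-like protein, fell by 0.94 (standard error 0.13, adjusted p = 0.0158) without overlap, and its adjusted p was 0.267 without WT duct replicate 1.

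Htr4, a serotonin receptor, measured 8.62 to 9.25 in WT (median 9.06), 6.95 and 7.66 in the DN-Clim TEBs and 6.62 and 7.55 in the DN-Clim ducts. No DN-Clim value reached the WT range, and Htr4 fell by 1.77 (standard error 0.22, adjusted p = 0.00792). Agtr1a, the receptor of angiotensin II, measured 10.87 to 11.68 in WT (median 11.31), 10.06 and 10.17 in the DN-Clim TEBs and 10.11 and 10.25 in the DN-Clim ducts and fell by 1.16 (standard error 0.14, adjusted p = 0.00574), again without overlap. Il6ra, the receptor subunit that binds interleukin 6, fell by 0.75 (standard error 0.11, adjusted p = 0.0188), and passed in 6 of the 10 fits without 1 array (adjusted p up to 0.306).

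Transcription factors were represented by Tfap2b, the AP-2 beta factor, at 10.74 to 11.17 in WT (median 11.06), 9.27 and 9.79 in the DN-Clim TEBs and 9.41 and 10.08 in the DN-Clim ducts. The first DN-Clim mouse was lower than the second in both structures, all 4 values were below WT, and Tfap2b fell by 1.38 (standard error 0.15, adjusted p = 0.00455). Zbtb16, a zinc finger repressor that is induced by glucocorticoids, measured 10.79 to 11.49 in WT (median 11.14), 9.81 and 9.92 in the DN-Clim TEBs and 9.85 and 10.20 in the DN-Clim ducts and fell by 1.20 (standard error 0.14, adjusted p = 0.00562), without overlap. Fkbp5, a co-chaperone of steroid receptors, fell by 0.81 (standard error 0.13, adjusted p = 0.0287) but kept its call in 2 of 10 fits without 1 array (adjusted p up to 0.262).

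Of the ion transport genes, Fxyd2, the gamma subunit of the sodium pump, measured 9.05 to 9.81 in WT (median 9.69), 6.77 and 6.97 in the DN-Clim TEBs and 7.97 and 7.99 in the DN-Clim ducts. It was lower in DN-Clim TEBs than in DN-Clim ducts, both below all WT arrays, and Fxyd2 fell by 2.09 (standard error 0.18, adjusted p = 0.00101). Ano1, a calcium-activated chloride channel, fell by 0.54 (standard error 0.08, adjusted p = 0.0287), and Cldn8, a claudin of tight junctions, fell by 0.41 (standard error 0.06, adjusted p = 0.0287), the first in 4 and the second in 3 of the 10 fits without 1 array (adjusted p up to 0.267 and 0.367). Plac8, a small cysteine-rich protein, measured 8.24 to 9.64 in WT (median 9.003), 7.05 and 6.88 in the DN-Clim TEBs and 7.91 and 7.33 in the DN-Clim ducts. It fell by 1.64 (standard error 0.29, adjusted p = 0.0435) without overlap, yet passed in only 2 of the 10 fits without 1 array (adjusted p up to 0.312).

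Ache, which encodes acetylcholinesterase, had the largest fitted decrease. Its level was 9.12 to 9.88 in WT (median 9.23), 6.25 and 3.66 in the DN-Clim TEBs and 6.78 and 5.62 in the DN-Clim ducts. WT values were tight and high, DN-Clim values were low and spread, and Ache fell by 3.75 (standard error 0.52, adjusted p = 0.016). All 4 DN-Clim intensities, 12.6 to 110, were under the minimum of 200 used to keep probe sets, so the size of the decrease, and its rank, rest on values that may be background. Ufsp1, a protease of the ubiquitin-like modifier UFM1, measured 9.34 to 9.84 in WT (median 9.51), 7.60 and 7.60 in the DN-Clim TEBs and 8.15 and 7.76 in the DN-Clim ducts and fell by 1.79 (standard error 0.16, adjusted p = 0.00101). In the RefSeq annotation 1 gene lies between Ache and Ufsp1. At other ages the levels of both genes followed the replicate number within a genotype. At 10 weeks WT replicate 1 had Ache at 9.21 in the TEB and 9.45 in the duct, and replicate 2 at 6.69 and 7.21. Ufsp1 stood at 9.52 and 9.81 in the first and at 7.85 and 7.80 in the second. The duct array of this second replicate is 1 of the 2 WT duct arrays whose labels conflict. At 8 weeks DN-Clim replicate 3 had Ache at 9.78 and 9.91, while replicate 2 had 7.60 and 7.63. At 6 weeks all 60 genes rest on 3 WT and 2 DN-Clim mice. Levels of Ache and Ufsp1 also varied between mice of 1 genotype at other ages. For these 2 genes a difference between individual mice and a difference between genotypes cannot be told apart. The same holds for Nnt, which measured 9.08 to 9.30 in WT and 9.72 to 10.23 in DN-Clim at 6 weeks and, at 4 weeks, 9.96 and 9.92 in WT replicate 3 and 9.05 and 8.87 in WT replicate 1.

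Smaller changes made up the rest. The other 6 higher genes were Chn2, Myo5c, Pde4b, Cdca7, Msn and Sorbs2, with increases from 0.39 (Sorbs2, an adaptor of the actin cytoskeleton) to 0.70 (Chn2, a GTPase-activating protein for Rac). The other 16 lower genes were Gsta4, Rgs2, Tuft1, Plcb1, Pgm5, Upk2, Dipk1a, Arg2, Dhrs3, Lpin1, Xdh, Cd81, Cdo1, Osbpl9, St6galnac2 and Hipk2. Gsta4, a glutathione transferase, fell by 1.07 (standard error 0.19, adjusted p = 0.0435), Rgs2, which shortens G protein signals, fell by 0.94 (standard error 0.16, adjusted p = 0.0401), and Xdh, the xanthine oxidoreductase of the milk fat globule, fell by 0.49 (standard error 0.08, adjusted p = 0.0368). Of all 60 genes, 6 passed in every fit without 1 array, 11 in all but that without WT duct replicate 1, and 43 lost their call in others.

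Of the 60 genes, 25 also passed in the same direction in the mean DN-Clim effect at 4, 8 and 10 weeks, which rests on 32 other arrays and other mice. They are 12 of the 24 higher and 13 of the 36 lower genes, where 6.15% and 8.09% of all genes passed in those directions. Over all genes, 6, 1620 and 429 passed at 4, 8 and 10 weeks alone, so passing in the mean is not passing at each age. Another 3 passed in the opposite direction, Hmgcs1, Rgs2 and Tuft1. Without the 2 WT duct arrays of other ages whose labels conflict, 21 of the 60 passed in the same direction and 0 in the opposite (Hmgcs1 had an adjusted p of 0.1, Rgs2 of 0.0638 and Tuft1 of 0.0964), and the calls over all genes numbered 973 in place of 1903. The sign at 6 weeks was the same at 4, 8 and 10 weeks in 47, 39 and 43 of the 60 genes, and in 28 at all of these ages. The share of all genes with matching signs was not counted, so these numbers have no background beside them.

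As a mean over the other ages, R3hdml rose by 2.18 (standard error 0.17, adjusted p = 2.03e-09) and Dmbt1 fell by 2.94 (standard error 0.55, adjusted p = 0.000861). By age these means were uneven. At 4, 8 and 10 weeks the differences were 2.33, 3.40 and 0.79 (adjusted p = 2.72e-05, 6.07e-08 and 0.171) for R3hdml and −3.43, −3.13 and −2.27 (adjusted p = 0.163, 0.0354 and 0.231) for Dmbt1. The mean of Fxyd2 fell by 1.37 (standard error 0.24, adjusted p = 0.000448) and that of Htr4 by 1.35 (standard error 0.25, adjusted p = 0.000909). That of Wif1 fell by 0.80 (standard error 0.16, adjusted p = 0.00152) and that of Tfap2b by 0.76 (standard error 0.13, adjusted p = 0.000536). Each had the same sign at all 3 ages. At 8 weeks alone all of them passed, and at 4 weeks none did (adjusted p = 0.0968, 0.786, 0.883 and 0.128). At 10 weeks only Wif1 passed, with 0.0392. The mean of Dscam rose by 1.32 (standard error 0.36, adjusted p = 0.0158), but its sign turned, with 1.79, 3.11 and −0.96 (adjusted p = 0.346, 0.0027 and 0.527). Sprr1a, a cornified envelope precursor, rose as a mean by 1.996 (standard error 0.28, adjusted p = 3.38e-05), with −0.09, 2.36 and 3.71 (adjusted p = 0.999, 0.0027 and 0.000299). Sprr1a at 6 weeks rose by 1.13 (standard error 0.21, adjusted p = 0.0472), with levels of 8.03 to 9.88 in WT and 9.71 to 10.61 in DN-Clim, and passed in 1 of 10 fits without 1 array (adjusted p up to 0.213).

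Other genes of the 60 had small differences at the other ages that did not pass. Kcns3 differed there by 0.15 (standard error 0.08, adjusted p = 0.179), Ache by −0.14 (standard error 0.35, adjusted p = 0.829), Ufsp1 by −0.08 (standard error 0.18, adjusted p = 0.815), Tnc by 0.08 (standard error 0.19, adjusted p = 0.829) and Agtr1a by 0.23 (standard error 0.19, adjusted p = 0.434). Whether the effect at 6 weeks differed from the mean effect at the other ages was tested with all 42 captured arrays, and 8 genes passed (0.0599%), with 1497 at an unadjusted p under 0.05. Kcns3 was 1 of them, by 1.09 (standard error 0.16, adjusted p = 0.00177), and so were Ache, by −3.61 (standard error 0.72, adjusted p = 0.0428), and Chn2 by 0.74 (standard error 0.15, adjusted p = 0.0428). The other 5, Kcnmb1, Mest, Nnat, Snora73a and Snora73b, had effects at 6 weeks between −0.25 and 0.40 that did not pass, and effects at the other ages of −1.41 for Kcnmb1, −1.44 for Mest, −0.73 for Nnat, 0.74 for Snora73a and 0.77 for Snora73b. Without WT TEB replicate 1, as without the 2 arrays with conflicting labels, 1 of the 8 passed. Ifnz did not pass this test, at 1.10 (standard error 0.24, adjusted p = 0.0829). Its WT levels at 6 weeks, 7.44 to 8.02, were below those of all 14 WT arrays of other ages, 8.73 to 9.84, while the DN-Clim levels at 6 weeks, 8.91 to 9.46, lay within the 8.88 to 10.52 of the 18 DN-Clim arrays of other ages. Mouse and genotype differences at 6 weeks cannot be told apart here either.

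**Figure D2:**
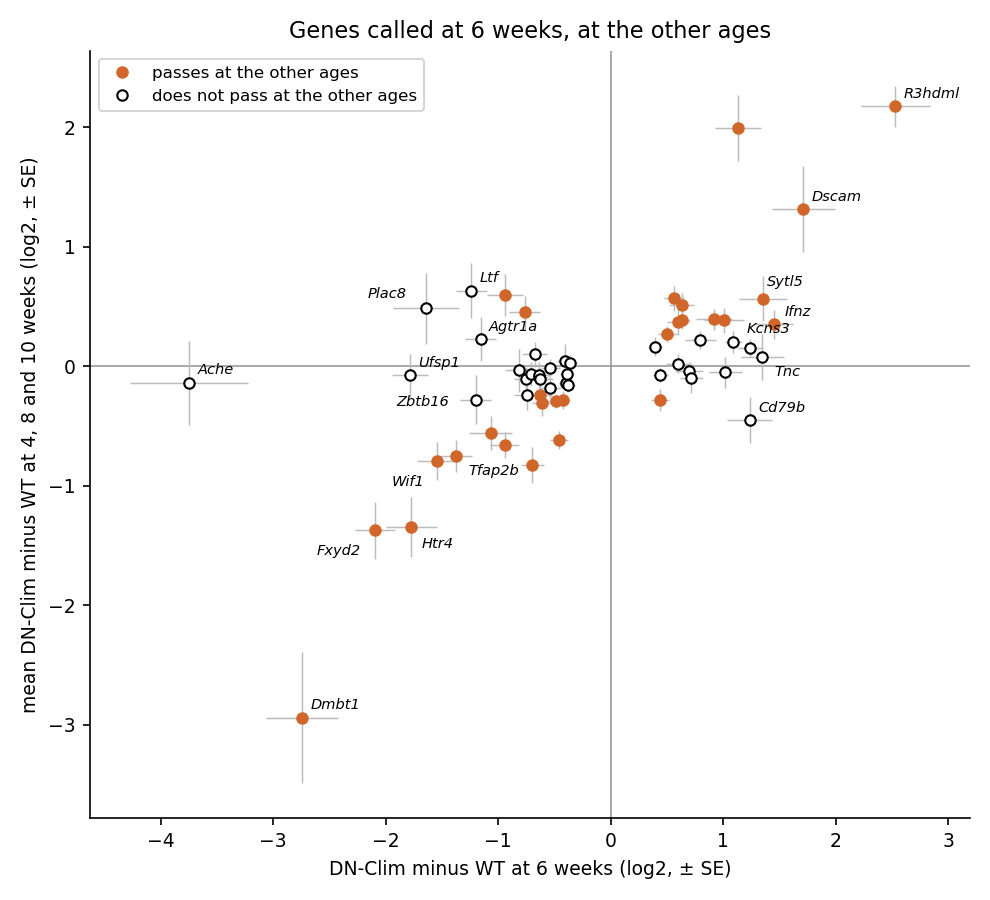
Difference between DN-Clim and WT at 6 weeks (horizontal axis) and its mean at 4, 8 and 10 weeks (vertical axis), both log2 with standard errors, for the 60 genes past the test at 6 weeks, 1 point per gene. Filled points also pass at the other ages in either direction (28 genes), and Ache and Ufsp1 lie far to the left at a height near 0.

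**Figure D3:**
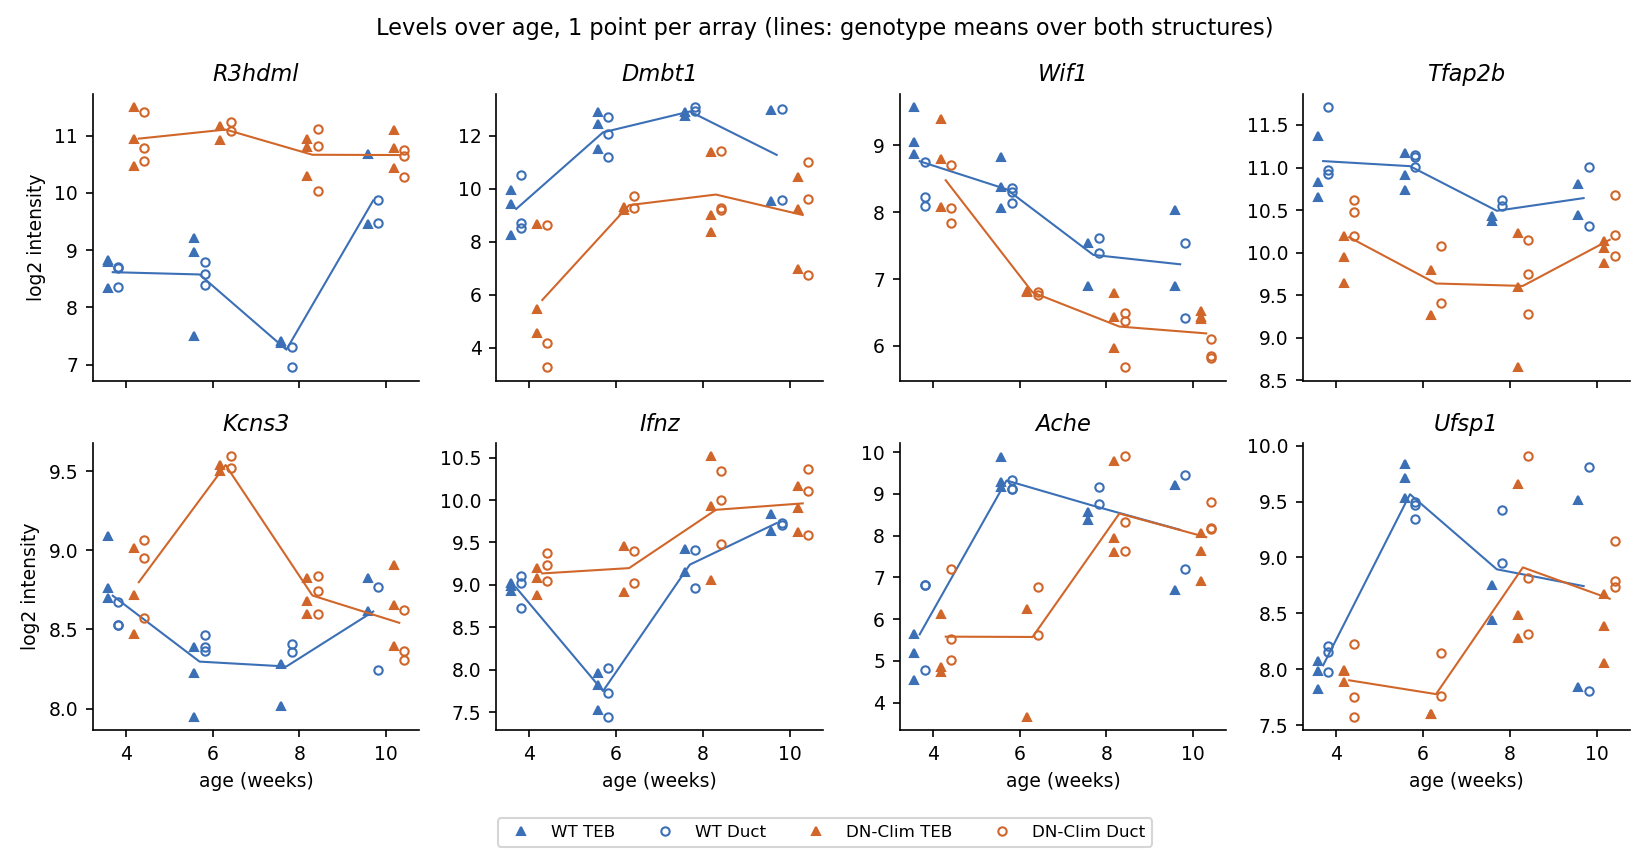
Log2 intensity (vertical axis) of 8 genes at 4, 6, 8 and 10 weeks (horizontal axis), with 1 point per captured array and lines through the means of WT (blue) and DN-Clim (orange). Kcns3 lies at 9.50 to 9.59 in DN-Clim at 6 weeks and at 8.31 to 9.07 in DN-Clim at other ages, Ifnz at 7.44 to 8.02 in WT at 6 weeks, and Ache at other ages runs from 4.55 to 9.45 in WT and from 4.75 to 9.91 in DN-Clim.

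Within each structure the same 10 arrays gave few calls. In TEBs 6 genes passed (0.0449%), Kcns3, Gipc2 and Glycam1 higher and Ufsp1, Fxyd2 and Zbtb16 lower. In ducts 5 passed (0.0374%), Kcns3 and Gipc2 higher and Ufsp1, Fxyd2 and Ltf lower. At an unadjusted p under 0.05 there were 1007 genes in TEBs and 739 in ducts. The duct count was 0 without any 1 of WT duct replicates 1, 2 and 3 or DN-Clim duct replicate 2, 2 without DN-Clim duct replicate 1 and 20 without WT TEB replicate 1, and the TEB count was 16 without WT TEB replicate 1 and 3 without DN-Clim TEB replicate 2. In TEBs Fxyd2 fell by 2.42 (adjusted p = 0.000926, standard error 0.18), while in ducts it fell by 1.77 (adjusted p = 0.0123, standard error 0.18). For Kcns3 the rise was 1.33 in TEBs (adjusted p = 0.0124) and 1.15 in ducts (adjusted p = 0.0425), with a standard error of 0.14 in both.

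The difference between the effects in TEB and duct passed for 1 gene (0.00748%), Glycam1, with 235 genes at an unadjusted p under 0.05. Glycam1 encodes a mucin-like glycoprotein made in milk-secreting epithelium and in the vessels of lymph nodes. Its level was 13.86 and 12.18 in the DN-Clim TEBs, 7.12 and 7.78 in the DN-Clim ducts and 7.34 to 7.86 in WT. The effects differed by 5.82 (standard error 0.55, adjusted p = 0.0186). That in TEBs was 5.60 (standard error 0.43, adjusted p = 0.000926), and that in ducts, which did not pass, −0.22 (standard error 0.43, adjusted p = 0.983). At other ages single arrays of both genotypes were also high, up to 12.61 in a DN-Clim duct at 4 weeks, 11.33 in a WT TEB at 10 weeks and 13.53 in a DN-Clim TEB at 10 weeks. The call was absent in 6 of the 10 fits without 1 array.

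FGF receptors carry growth signals from stromal ligands into the mammary epithelium, and the transcription factors Etv4 and Etv5 and the inhibitors Dusp6 and Spry1 are induced by that signal, the latter restraining it. Fgfr2 measured 12.002 to 12.24 in WT (median 12.12), 11.27 and 11.67 in the DN-Clim TEBs and 11.38 and 11.73 in the DN-Clim ducts. Every DN-Clim value was below every WT value, and Fgfr2 fell by 0.61 (standard error 0.09, adjusted p = 0.0188). Its call was lost without WT duct replicate 1, WT duct replicate 3, DN-Clim duct replicate 1 or DN-Clim TEB replicate 1 (adjusted p up to 0.168), and its mean difference at the other ages was −0.31 (standard error 0.11, adjusted p = 0.0441), with an adjusted p of 0.094 without the 2 arrays with conflicting labels. At 4, 8 and 10 weeks it was −0.44, −0.36 and −0.13 (adjusted p = 0.51, 0.192 and 0.831). Of the 16 measured genes of the FGF list 0 were higher and 1, Fgfr2, was lower, where 0.18% and 0.269% of all genes passed. The median difference of the list was 0.24 and 13 of 16 were above 0. The array means of the list did not overlap, at 8.77 to 9.18 in WT and 9.20 to 9.38 in DN-Clim. For 5 genes all DN-Clim values were above WT, where 2.77% of all genes did so, including Etv5 at 0.56 (standard error 0.11, adjusted p = 0.058), Spry1 at 0.39 (standard error 0.07, adjusted p = 0.0598) and Dusp6 at 0.61 (standard error 0.14, adjusted p = 0.111), none of which passed. The receptor Fgfr1 differed by −0.11 (standard error 0.10, adjusted p = 0.743) and Fgfr3 by 0.40 (standard error 0.12, adjusted p = 0.257), and the ligands Fgf2, Fgf7 and Fgf10 by 0.03, 0.18 and 0.05. Outside the list, Il17rd, a membrane inhibitor of FGF signalling, measured 8.32 to 8.51 in WT (median 8.40), 7.81 and 7.56 in the DN-Clim TEBs and 7.91 and 7.82 in the DN-Clim ducts and fell by 0.63 (standard error 0.11, adjusted p = 0.0435), a call that held in 1 of 10 fits without 1 array (adjusted p up to 0.401).

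ErbB receptors bind EGF-like ligands and neuregulins. Erbb3, a receptor for neuregulins that signals through its partners, measured 11.73 to 11.94 in WT (median 11.89), 11.32 and 11.48 in the DN-Clim TEBs and 11.49 and 11.64 in the DN-Clim ducts. The ranges did not meet, and Erbb3 fell by 0.36 (standard error 0.06, adjusted p = 0.0358), but the call held in 1 of 10 fits without 1 array and the adjusted p was 0.0564 without WT TEB replicate 1 and up to 0.39. At the other ages its mean difference was 0.02 (standard error 0.07, adjusted p = 0.847). Erbb2, its partner, measured 10.39 to 10.71 in WT and 9.88 to 10.34 in DN-Clim, also without overlap, and differed by −0.44 (standard error 0.09, adjusted p = 0.0855). Among the 10 measured genes of the list 1 was lower and 0 were higher (0.269% and 0.18% over all genes), and the median was 0.07. The ligands Nrg1 and Btc differed by 0.70 (standard error 0.31, adjusted p = 0.427) and 0.56 (standard error 0.22, adjusted p = 0.363). Nrg4, a neuregulin outside the list, measured 10.19 to 11.12 in WT (median 10.63), 9.87 and 10.27 in the DN-Clim TEBs and 9.63 and 9.73 in the DN-Clim ducts and fell by 0.74 (standard error 0.12, adjusted p = 0.0311). It was lost in 5 of the 10 fits without 1 array (adjusted p up to 0.262).

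Of the 34 measured Wnt pathway genes, 1, Wif1, passed and was lower (0.269% over all genes). The median difference of the list was 0.10 (0.02 without WT TEB replicate 1), with 23 above 0. Lgr5, a receptor of R-spondins and a marker of stem cells in several epithelia, measured 7.70 to 10.03 in WT (median 9.09), 6.55 and 6.72 in the DN-Clim TEBs and 7.62 and 8.88 in the DN-Clim ducts. The groups overlapped and its difference was −1.46 (standard error 0.31, adjusted p = 0.0877), while its mean over the other ages fell by 0.83 (standard error 0.18, adjusted p = 0.00345). Wnt4, a ligand induced by progesterone, differed by −0.33 (standard error 0.14, adjusted p = 0.393). None of the measured members passed in the Notch (15 genes, median 0.03), TGF-beta and BMP (20 genes, median 0.06) and hormone receptor (12 genes, median −0.02) lists, nor in the list of 19 basal stem cell factors (median 0.13). The progesterone receptor Pgr, at 11.32 to 11.64 in WT and 11.66 to 11.99 in DN-Clim, differed by 0.35 (standard error 0.09, adjusted p = 0.158) without overlap.

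**Figure D4:**
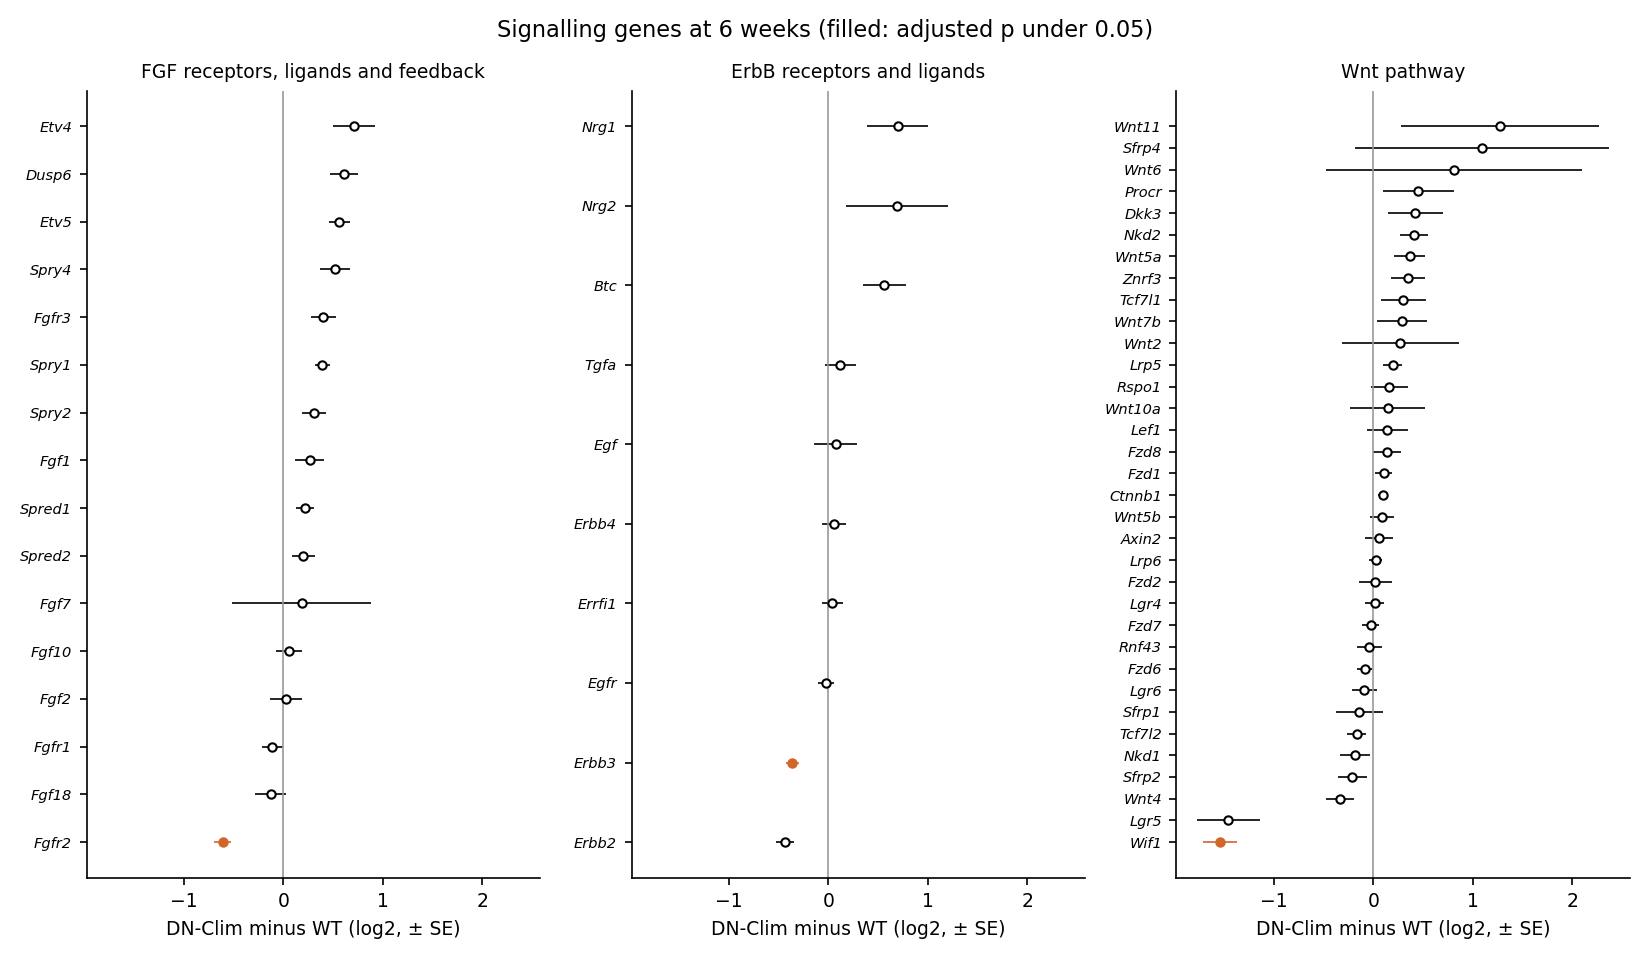
Difference between DN-Clim and WT at 6 weeks (horizontal axis, log2 with standard error) of each measured gene of the FGF, ErbB and Wnt lists, 1 point per gene, sorted by value, with filled points at an adjusted p under 0.05. Fgfr2 (−0.61), Erbb3 (−0.36) and Wif1 (−1.54) are the filled points, 1 per list, and 13 of the 16 FGF genes lie to the right of 0.

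Cell division genes, of which 41 were measured, had none past the test, and in none did the groups keep apart. All 41 differences were above 0 and the median was 0.74 (0.69 without WT TEB replicate 1), against 0.06 over all genes, with 31 genes at an unadjusted p under 0.05, as had 1501 or 11.2% of all genes. Mki67, a marker of dividing cells, measured 8.80 to 10.65 in WT and 10.18 to 10.90 in DN-Clim, a difference of 0.75 (standard error 0.28, adjusted p = 0.355), and Mcm6, a subunit of the replicative helicase, 9.50 to 10.42 in WT and 10.31 to 10.68 in DN-Clim, a difference of 0.50 (standard error 0.11, adjusted p = 0.0934). Array means of the list ran from 7.52 to 8.99 in WT and from 8.45 to 9.30 in DN-Clim, so the groups overlapped. WT TEB replicates 1 and 3 and WT duct replicate 3 had the lowest means. At 4, 8 and 10 weeks the median difference of the list was 0.10, 0.60 and −0.14.

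Interferon response genes differed in the other direction without passing. Of 15 measured genes 14 were below 0, with a median of −0.45 (−0.49 without WT TEB replicate 1) and 9 at an unadjusted p under 0.05, against 11.2% of all genes. Oasl2, which is induced by interferon, measured 8.69 to 9.94 in WT and 7.99 to 8.58 in DN-Clim without overlap, a difference of −1.04 (standard error 0.26, adjusted p = 0.162), and Irf7, a transcription factor of this response, 7.79 to 9.59 in WT and 7.20 to 8.05 in DN-Clim, a difference of −1.04 (standard error 0.34, adjusted p = 0.269). The list mean was high in WT TEB replicate 2 and WT duct replicates 1 and 2, and that of WT duct replicate 3 was the lowest of all 10 arrays. The list did not include Ifnz, which was higher in DN-Clim. At 4, 8 and 10 weeks the median was −0.07, 0.09 and −0.08.

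The markers of other cell types included 1 gene past the test. Cd79b, a subunit of the B cell receptor, measured 7.26 to 8.27 in WT (median 7.69), 8.37 and 8.11 in the DN-Clim TEBs and 9.98 and 9.34 in the DN-Clim ducts. Within each structure both DN-Clim values were above WT, and Cd79b rose by 1.23 (standard error 0.20, adjusted p = 0.0315), a call that held in 3 of 10 fits without 1 array (adjusted p up to 0.38). It was the 1 called gene of 12 measured lymphocyte markers, where 0.18% of all genes were higher. Without WT TEB replicate 1, 2 of the 12 markers were called higher. Their median difference was 1.09, or 0.62 without WT TEB replicate 1, in which Cd4, Cd79a and Ms4a1 were set to an intensity of 1, and 11 were above 0. The summed intensity of the 12 markers was 1188 to 2170 in WT and 2228 to 3731 in DN-Clim. At 4, 8 and 10 weeks the median was −0.01, −0.45 and −0.57. The part of these cells in the other differences was not tested. Of the adipocyte (15 genes), fibroblast (17), endothelial (16), macrophage (12), mast cell (4), skeletal muscle (10), red blood cell (2) and nerve (6) markers none passed, with medians between −0.17 and 0.58. The highest of these, that of the mast cell markers, was 0.27 without WT TEB replicate 1.

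The markers of the epithelial layers showed 1 call. In the luminal progenitor and alveolar list Ltf was lower (0.269% over all genes), 9 of 12 genes were below 0 and the median was −0.21. The array means of this list did not overlap, at 9.49 to 9.80 in WT and 9.24 to 9.48 in DN-Clim. The milk caseins Csn3 and Csn1s1 differed by −0.34 (standard error 0.07, adjusted p = 0.0626) and −1.29 (standard error 0.31, adjusted p = 0.136). The 14 general luminal markers had 0 calls and a median of −0.01, and the 9 hormone-sensing markers 0 calls and a median of −0.03. Of the 19 basal myoepithelial markers none passed, with 12 above 0 and 7 below. The median was 0.15, or −0.02 in TEBs and 0.31 in ducts. At an unadjusted p under 0.05 there were 11 of them, against 11.2% of all genes. Oxtr, the oxytocin receptor of myoepithelial cells, measured 10.61 to 11.28 in WT and 9.67 to 10.32 in DN-Clim, a difference of −0.90 (standard error 0.17, adjusted p = 0.0531), and the myosin kinase Mylk 9.73 to 10.02 in WT and 9.38 to 9.57 in DN-Clim, a difference of −0.38 (standard error 0.08, adjusted p = 0.0821). The basal transcription factor Trp63 ran the other way, at 9.44 to 9.58 in WT and 9.71 to 9.88 in DN-Clim, a difference of 0.31 (standard error 0.07, adjusted p = 0.0821).

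**Figure D5:**
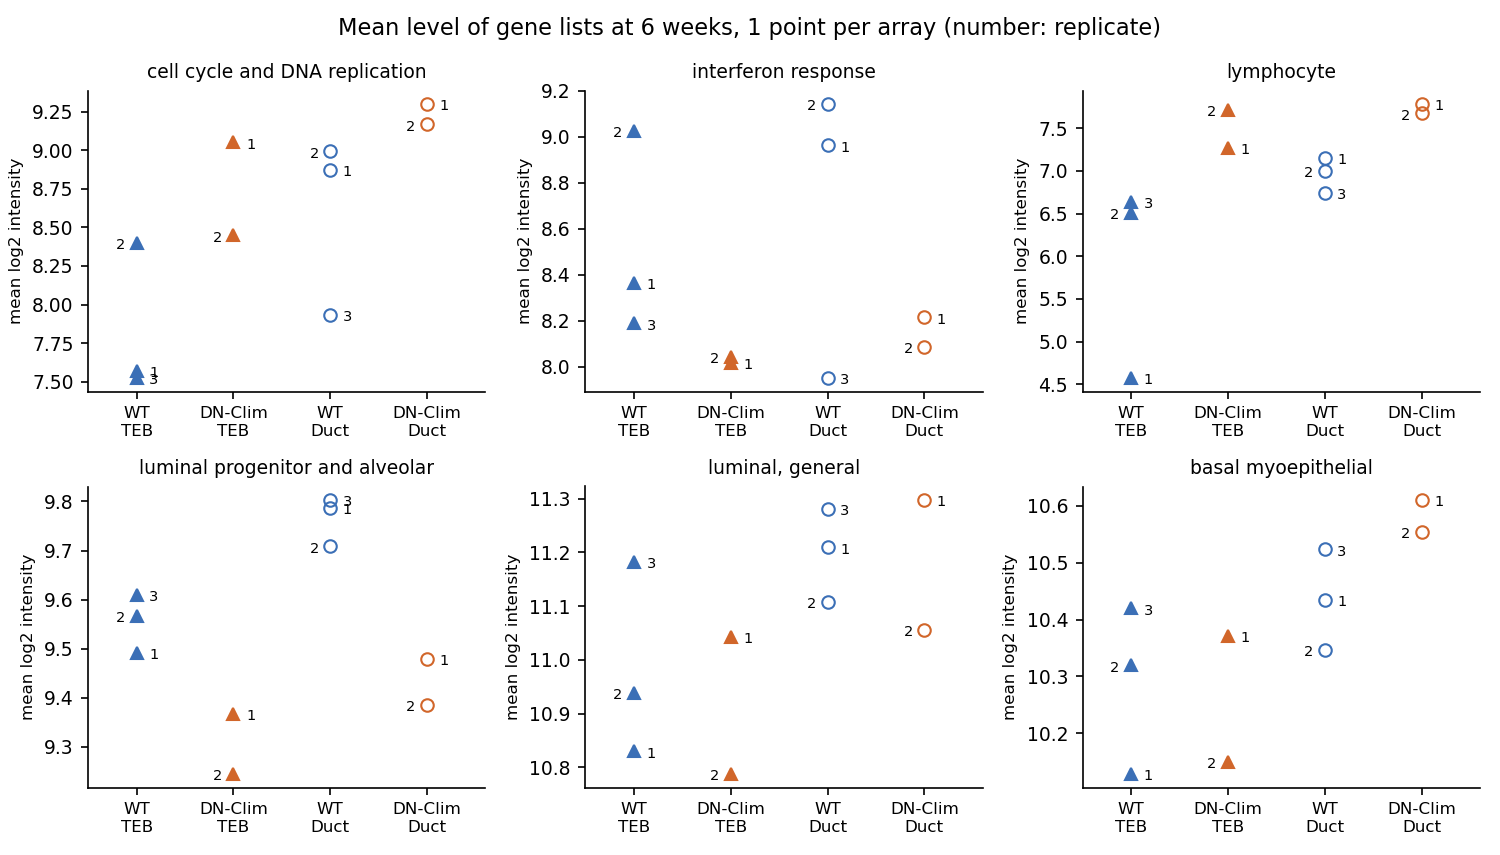
Mean log2 intensity (vertical axis, scaled per panel) of 6 gene lists on each of the 10 arrays at 6 weeks, grouped by genotype and structure (horizontal axis) and marked with the replicate number. Luminal progenitor and alveolar means are lower in DN-Clim (9.24 to 9.48) than in WT (9.49 to 9.80), cell cycle means overlap, and the lowest lymphocyte mean is that of WT TEB replicate 1 (4.57).

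Among further lists, the secreted mucosal and antimicrobial genes had 2 lower of 18, Dmbt1 and Ltf, where 0.269% of all genes were lower. The median of the list was 0.06 (0.04 without WT TEB replicate 1). As this and the other lists were drawn up with earlier results of these data known, such counts are no test of them. Defb1, an antimicrobial beta-defensin, measured 7.71 to 9.26 in WT and 5.29 to 7.49 in DN-Clim, a difference of −2.49 (standard error 0.47, adjusted p = 0.0533). Against 0.18% higher over all genes, the hypoxia and glycolysis list had 1 higher of 16, Egln3, with a median of 0.20, and the lipid synthesis list 1 higher of 14, Hmgcs1, an enzyme of cholesterol synthesis, at 9.20 to 9.50 in WT and 9.66 to 9.86 in DN-Clim, a difference of 0.44 (standard error 0.08, adjusted p = 0.0491). Hmgcs1 lost its call in all 10 fits without 1 array. Idi1, which acts later in the same pathway, measured 7.68 to 8.70 in WT and 9.19 to 9.35 in DN-Clim, a difference of 1.01 (standard error 0.21, adjusted p = 0.0765). The epidermal differentiation list had 1 higher of 19, Sprr1a, with a median of 0.13 that was −0.04 without WT TEB replicate 1. The summed intensity of this list was 9211 and 10347 in the TEB and duct of DN-Clim replicate 1, 4522 and 5769 in those of DN-Clim replicate 2 and 3026 to 5530 in WT, so that 1 of the 2 DN-Clim mice stood apart. The immediate-early (23 genes, median 0.20), heat shock (14, 0.18), ribosome biogenesis (30, 0.15), metalloproteinase (17, 0.07), ductal adhesion (23, 0.13), noncoding RNA (9, −0.11) and replication-dependent histone (13, 0.31) lists had 0 calls. Without WT TEB replicate 1 the immediate-early median was 0.08, with 1 gene called higher. The heat shock median was then 0.12 and the histone median 0.23.

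Sorted basal and luminal cells, with 2 arrays for each cell type and genotype, give the levels of the 60 genes in each layer. The age recorded for these samples is 10 weeks. The paper gives a range of adult ages for cell preparation, and a younger age in a legend on sorted cells. Between WT basal and luminal cells, 24 of the 36 lower genes were higher in luminal cells and 3 in basal cells, while of the 24 higher genes 7 were higher in luminal and 6 in basal cells. Over all genes 16.9% were higher in luminal and 13.6% in basal cells. The difference, basal minus luminal, was −5.99 for Dmbt1, −5.12 for Fxyd2, −5.42 for Agtr1a, −3.80 for Zbtb16 and −3.97 for Erbb3, and, of the genes that rose at 6 weeks, −6.16 for R3hdml and −4.50 for Gipc2. Wif1 was higher in basal cells by 5.51, Hgf by 7.71, Cmah by 5.003 and Tnc by 3.26.

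Between DN-Clim and WT, limma called 6 genes in sorted basal cells (0.0449%) and 10 in sorted luminal cells (0.0748%), while 1839 and 1131 had an unadjusted p under 0.05. Of the 60 genes, 1 passed in basal cells and 1 in luminal cells, each in the direction seen at 6 weeks. Wif1 measured 11.31 and 11.93 in WT basal cells and 7.60 and 7.93 in DN-Clim basal cells. In basal cells it fell by 3.86 (standard error 0.24, adjusted p = 0.004) and differed by 0.24 (standard error 0.24, adjusted p = 0.754) in luminal cells. Tfap2b measured 11.78 and 11.20 in WT luminal cells and 9.41 and 9.36 in DN-Clim luminal cells. In luminal cells it fell by 2.10 (standard error 0.20, adjusted p = 0.0408) and differed by −0.87 (standard error 0.20, adjusted p = 0.284) in basal cells. Signs in sorted cells matched those at 6 weeks for 40 of the 60 genes in basal and 50 in luminal cells. The share of all genes with matching signs was not counted here either. R3hdml differed by 2.62 (standard error 0.98, adjusted p = 0.338) in basal and 0.96 (standard error 0.98, adjusted p = 0.766) in luminal cells, and Dmbt1 by −0.35 (standard error 0.77, adjusted p = 0.861) and −1.55 (standard error 0.77, adjusted p = 0.611). The titles of the luminal arrays give the basal sort gate, and their other labels name luminal cells.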

How the data were processed

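RNA from laser-captured TEBs and ducts was hybridized to Affymetrix Mouse Gene 1.0 ST arrays. The authors summarized the scans with PLIER (version not given in the sources used here), and deposited 1 linear intensity per probe set and array, from before their log transformation and centring. Precision is limited by the number of arrays.

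The log2 of each intensity was used, with values under 1 raised to 1. Of 35557 probe sets, 21789 had 1 gene symbol in the platform annotation, 1621 several and 12147 none. Probe sets with an intensity of 200 or more on at least 1 of the 42 captured arrays were kept (22693), with 1 per gene, that of the highest mean, which left 13362 genes. Genotype effects were fitted with limma 3.58.1 in R 4.3.3 (lmFit, and eBayes with a variance trend), with structure as a covariate and the mouse as a random block, and called at a Benjamini-Hochberg adjusted p under 0.05. A version of the authors' test, Cyber-T within a structure, was run as an alternative. It took the log2 intensities of 1 age without the authors' centring and scaling. Their demand that a gene pass at more than 1 age was not applied, so its counts are not theirs. Effects in TEB, in duct and their difference came from a model of 4 groups, and the contrast with other ages from all 42 captured arrays.

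The block comes from the mouse numbers in the study's methods, since the labels do not tie a TEB to a duct. The deviations of TEB and duct arrays of the same number correlated at −0.083, 0.333 and 0.175 in WT and at 0.575 in DN-Clim. Those of different numbers correlated at −0.337 to 0.198 in WT, which overlaps with the same-number values. In DN-Clim they mirror the same-number value at −0.575, as each structure has 2 arrays. The correlation within a mouse estimated by limma was 0.186. P-values measure the spread between these few arrays.

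The genes described in most detail are the 10 largest increases and 10 largest decreases among genes past the test whose groups did not overlap, with a fixed set of receptors, keratins and Clim genes and the leading members of each list, and further genes were named after their values were seen. The comparison and the gene lists were chosen with earlier results of these data known. RefSeq (GRCm38.p6) was used only for the order of neighbouring genes. The fit was tested on simulated data. Other normalizations, filters, floors, variance models and blocks were tried, and each array was left out in turn. Titles and descriptions conflict for 2 WT duct arrays of 8 and 10 weeks and for the 4 sorted luminal arrays, and the tissue and cell type labels were followed.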

Additional observations from a re-analysis of the deposited data

Results flagged for a closer look

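Single arrays were compared with the rest of their genotype (6 WT or 4 DN-Clim arrays). This was done for the 20 genes with the largest changes without overlap, the Clim, receptor and keratin genes, and the median intensity. These were 60 groups in all, of which chance would set apart about 1 in 20. In 3 groups 1 array stood apart. Sytl5 was at 7.25 in WT duct replicate 3 (nearest 7.91), Tnc at 11.53 in DN-Clim duct replicate 2 (nearest 10.38) and Ache at 9.88 in WT TEB replicate 3 (nearest 9.34), all log2 intensities.

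Glycam1 differed between structures, with the effect in TEBs 5.82 above that in ducts on the log2 scale. Between 6 weeks and the mean of the other ages the effect differed by 1.09 for Kcns3, by 1.70 for Kcnmb1, a potassium channel subunit, by 1.11 for Nnat, by 1.85 for the imprinted gene Mest, by 0.74 for Chn2 and by −3.61 for Ache. The small nucleolar RNA genes Snora73a and Snora73b, whose sequences are alike so that their signals may be shared, differed by −0.993 and −1.003.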

How the results depend on the processing

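All 60 genes kept their direction in the 28 alternatives, and Kcns3, Gipc2, Fxyd2 and Ufsp1 passed in each. The number of calls depended on the model. Against 60, it was 5 with mouse means, 36 in the fit of all 42 arrays (20 of them among the 60), 118 with no replicate block, 201 with the replicate number as a fixed replicate block (86 higher, 115 lower), 491 with array weights (WT TEB replicate 1 had a weight of 0.134), 23 with no variance trend, 6 to 65 without 1 array and 15 to 91 without 1 mouse (34 of the 91 among the 60). With the arrays scaled to 1 mean and variance the count was 60, of which 36 were the same genes. Against 6 in TEBs, it was 213 by Cyber-T at an unadjusted p under 0.01 and 1.5-fold (58 after Benjamini-Hochberg), 11 with the arrays scaled to 1 mean and variance, 18 after quantile normalization, 11 with the filter on 6-week arrays, 15 with the fixed replicate block, 39 with array weights and 3 to 16 without 1 array. Against 5 in ducts, it was 381 by Cyber-T (346 after Benjamini-Hochberg), 17 with the scaled arrays, 21 after quantile normalization, 3 with no filter, 17 with the fixed replicate block, 233 with array weights, 3 with no variance trend and 0 to 20 without 1 array. The single call for the difference between structures became 0 with no filter, the fixed replicate block or no variance trend, and was 0 to 1 without 1 array. The contrast with other ages had 8 calls, and 1 without WT TEB replicate 1, 1 without the 2 arrays with conflicting labels, 2 after quantile normalization and 191 with no replicate block. The causes were not tested. Among 121 genes that were named or listed but not called, 14 changed sign in at least 1 alternative. Leaving out the 2 arrays with conflicting labels from the count shared with the other ages was chosen after seeing the data.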
